A study of Mus musculus with 17 samples.

Results

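The genes described here encode 6 surface proteins used to recognise or study plasma cells, namely Sdc1, Slamf7, Cd93, Cd28, Cd38 and Cd9, and the measurements are the chromatin accessibility of every region assigned to them. A region was a member where the table named the gene as its nearest transcript or its nearest transcription start. This rule gave 52 of 66177 regions, with 12 at Cd38, 11 at Cd93, 10 at Cd9, 7 at Sdc1, 7 at Slamf7 and 5 at Cd28. The rule itself used gene names and no accessibility value, but the genes were chosen with earlier results of these data known.

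ATAC-seq, in which a transposase inserts sequencing adapters into open chromatin, was performed on 3 sorted populations of mouse B lineage cells, naive B cells (nB), B cells of the germinal center (GCB) and plasma cells of the bone marrow (BMPC), from mice aged 8 to 12 weeks at the start of the experiments. The KO mice carried 1 Cre allele and floxed Dnmt3a and Dnmt3b (Dnmt3afl/fl Dnmt3bfl/fl), a design that deletes both de novo DNA methyltransferases in the B cell lineage. The control (C) mice carried the same floxed alleles on both chromosomes and no Cre allele, and the loss of the methyltransferases therefore cannot be told apart from the presence of the Cre allele. nB (B220+GL7-Fas-) were sorted from lymph nodes of unimmunized mice, whereas antigen-binding GCB (B220+PE+GL7+Fas+) and CD138+ BMPC were sorted 30 days after immunization with phycoerythrin in complete Freund's adjuvant (PE-CFA). The analysis used 3 nB C, 2 nB KO, 2 GCB C, 4 GCB KO, 3 BMPC C and 2 BMPC KO libraries, and a further sample labelled as KO BMPC was not analysed here. Each nB and BMPC library came from 1 mouse and each GCB library from 2 pooled mice. All 5 nB libraries were from male mice and all 5 BMPC libraries from female mice, so that sex and cell type cannot be told apart between them. The 6 GCB libraries came from both sexes. Immunization likewise cannot be told apart from the difference of nB from GCB and BMPC, nor tissue from that of BMPC from the others. The cell types came from different mice. Rises, falls, openings and steps named below are differences between groups, and no descent of a cell type from another was measured.

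Values are reads in a region per 1000000 reads in all regions of the library (RPPM), the unit the table was deposited in. The recovered reads numbered between 4104875 and 6079018 per nB library and between 5357687 and 8232313 per BMPC library but only 907959 to 2280954 per GCB library, so that 3 reads corresponded to between 0.364 and 3.30 RPPM and low values were least certain in GCB. A change is a log2 fold change of RPPM + 1, which understates the change of low regions, and a region was called where the change was at least 2-fold with an adjusted p of at most 0.01 in a limma fit of all 66177 regions and 16 libraries. The labelled cell types were compared with markers of each. Among germinal center markers, the promoter region of Gcsam, which encodes a signaling protein of germinal center B cells, had a mean of 21.0 RPPM in GCB C against 0.580 in nB C and 5.49 in BMPC C, whereas that of Bcl6, the repressor that directs the germinal center program, was highest in nB C, at 53.8 against 20.01 in GCB C. The promoter region of Tnfrsf17, which encodes the plasma cell receptor BCMA, had 20.00 RPPM in BMPC C against 0.392 in nB C, and that of Fcer2a, which encodes the naive B cell protein CD23, had 42.4 in nB C against 1.20 in BMPC C. Not all markers followed the labels. Irf4 of the plasma cell list had 57.4 RPPM in nB C and 44.1 in BMPC C, and naive Il4ra 44.8 and 45.2. S1pr2 and Fas of the germinal center list were highest in BMPC C, at 39.3 and 31.2. From C nB to C BMPC, 2 of 6 plasma cell genes were called higher and 0 lower at their promoter or nearest region. Of 6 naive genes, 0 were higher and 3 lower. From C nB to C GCB, 2 of 7 germinal center genes were higher and 1 lower. Accessibility was measured over the sorted population, and fewer cells with an open region cannot be told apart from less openness per cell.

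As background, Sdc1 encodes syndecan-1 (CD138), a heparan sulfate proteoglycan that binds growth and survival factors and is the standard marker of plasma cells. CD28 is the costimulatory receptor of T cells that binds CD80 and CD86, and is also found on plasma cells, where it supports survival. SLAMF7 is a receptor of the SLAM family on plasma cells and natural killer cells, CD93 a transmembrane glycoprotein with a C-type lectin domain that plasma cells need to persist in the bone marrow, and CD9 a tetraspanin found on several B cell subsets and on plasma cells. CD38 is an ectoenzyme that consumes NAD+, and in mice it is high on naive B cells and low on germinal center B cells.

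For each gene, the called region with the largest change from C nB to C BMPC was taken, and its central 300 bases follow on the strand of the gene (mm9, NCBIM37). The names give the distance of the region's centre from the transcription start. Sdc1, Cd28 and Cd9 are represented by a region that rose and Slamf7, Cd93 and Cd38 by a region that fell. The region shown does not stand for the whole gene, since 3 Slamf7 regions rose and 1 fell, and 2 Cd93 regions rose and 3 fell. At Cd9 only the 187 bases from the start codon on are given. Capitals mark matches on either strand to short motifs of B cell and plasma cell factors.
Sdc1 +10.0 kb (chr12:8787962-8788261, plus strand): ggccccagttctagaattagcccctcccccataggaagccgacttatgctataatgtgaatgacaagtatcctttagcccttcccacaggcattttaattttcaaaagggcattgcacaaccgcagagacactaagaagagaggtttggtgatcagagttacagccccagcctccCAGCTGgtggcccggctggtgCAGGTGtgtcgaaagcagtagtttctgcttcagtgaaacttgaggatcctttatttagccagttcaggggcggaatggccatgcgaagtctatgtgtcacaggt
Cd28 +15.4 kb (chr1:60818480-60818779, plus strand): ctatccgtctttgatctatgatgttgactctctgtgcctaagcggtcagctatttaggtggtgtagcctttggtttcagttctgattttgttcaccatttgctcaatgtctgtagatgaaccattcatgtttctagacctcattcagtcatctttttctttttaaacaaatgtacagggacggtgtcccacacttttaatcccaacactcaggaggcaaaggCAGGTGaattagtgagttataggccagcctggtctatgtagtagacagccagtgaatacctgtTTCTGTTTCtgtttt
Cd9 +0.2 kb (chr6:125444471-125444657, minus strand): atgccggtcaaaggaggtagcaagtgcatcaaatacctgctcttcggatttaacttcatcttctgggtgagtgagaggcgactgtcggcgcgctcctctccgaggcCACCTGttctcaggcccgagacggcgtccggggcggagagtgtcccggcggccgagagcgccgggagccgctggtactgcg
Slamf7 -12.7 kb (chr1:173591683-173591982, minus strand): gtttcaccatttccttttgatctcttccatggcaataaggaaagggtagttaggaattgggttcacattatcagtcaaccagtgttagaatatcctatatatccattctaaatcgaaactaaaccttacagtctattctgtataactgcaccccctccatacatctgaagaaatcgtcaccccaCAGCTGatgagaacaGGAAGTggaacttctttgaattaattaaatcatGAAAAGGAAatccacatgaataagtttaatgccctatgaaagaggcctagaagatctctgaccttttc
Cd93 -10.8 kb (chr2:148279936-148280235, minus strand): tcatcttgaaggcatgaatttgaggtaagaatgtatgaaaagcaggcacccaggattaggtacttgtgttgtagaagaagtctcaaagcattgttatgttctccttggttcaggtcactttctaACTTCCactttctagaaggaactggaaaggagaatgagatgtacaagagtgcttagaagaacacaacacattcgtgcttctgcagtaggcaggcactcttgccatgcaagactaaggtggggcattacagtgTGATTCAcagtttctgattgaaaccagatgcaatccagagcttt
Cd38 +3.1 kb (chr5:44263036-44263335, plus strand): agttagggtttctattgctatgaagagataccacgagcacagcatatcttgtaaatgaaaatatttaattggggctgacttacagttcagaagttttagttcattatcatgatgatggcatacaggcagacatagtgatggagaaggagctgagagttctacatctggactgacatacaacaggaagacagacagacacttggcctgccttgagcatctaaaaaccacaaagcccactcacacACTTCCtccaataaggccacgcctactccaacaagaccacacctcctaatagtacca

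The motifs are written 5′ to 3′ and were searched on both strands, with N for any base. The Sdc1 and Slamf7 sequences hold the E-box CAGCTG, and the Sdc1, Cd28 and Cd9 sequences the E-box CACCTG, elements read by E proteins and related factors. GGAAGT, a core of ETS sites, lies in the Slamf7, Cd93 and Cd38 sequences, GAAANNGAA, an element of the kind read by IRF factors, in those of Cd28 and Slamf7, and TGANTCA, the AP-1 element, in that of Cd93. Motifs this short are frequent. CAGCTG was found in 9 of the 52 member windows and in 20.6% of the 65891 windows of equal length on assembled chromosomes. CACCTG was in 16 member windows and 26.8% of all, GGAAGT in 18 and 30.3%, GAAANNGAA in 7 and 13.1%, and TGANTCA in 6 and 9.18%. The other motifs searched were absent from the 6 sequences, namely GGAANNGAA (3 member windows, 11.6% of all), the octamer ATGCAAAT (2, 3.96%), CCCNNGGGA (7, 6.41%) and ACGTG (14, 18.4%). A match describes letters and not a binding site.

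Across the 52 regions, the difference between nB and BMPC was the most frequent. From C nB to C BMPC, 18 regions rose and 14 fell, against 18.0% and 20.1% of all regions, or 34.6% and 26.9% of the members. The risen regions belonged to Sdc1 (5 of 7), Cd28 (4 of 5), Cd9 (4 of 10), Slamf7 (3 of 7) and Cd93 (2 of 11), and the fallen regions to Cd38 (10 of 12), Cd93 (3 of 11) and Slamf7 (1 of 7). The median change over the members was 0.10, against 0.03 over all regions. Comparing all 5 nB with all 5 BMPC libraries of both genotypes, 20 regions were higher and 16 lower in BMPC without overlap, where 29.5% and 27.8% of all regions were so. From C nB to C GCB, 4 regions rose and 9 fell, against 14.2% and 8.47% of all regions. From C GCB to C BMPC, 15 rose and 5 fell, against 11.3% and 19.1% of all regions, and no region of Sdc1, Cd28 or Cd9 fell in any of these comparisons except the +58.2 kb region of Sdc1, which fell from nB to GCB. With quantile normalization, which shifted the median of all regions by -0.11 from C nB to C GCB and by 0.14 from C GCB to C BMPC, the counts of the members were 5 risen and 12 fallen for C nB to C GCB and 16 risen and 4 fallen for C GCB to C BMPC. Over all regions that normalization gave 7418 risen and 7053 fallen from C nB to C GCB, where 9427 and 5602 were called without it, and 9585 and 9871 from C GCB to C BMPC, where 7474 and 12636 were called.

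**Figure D1:**
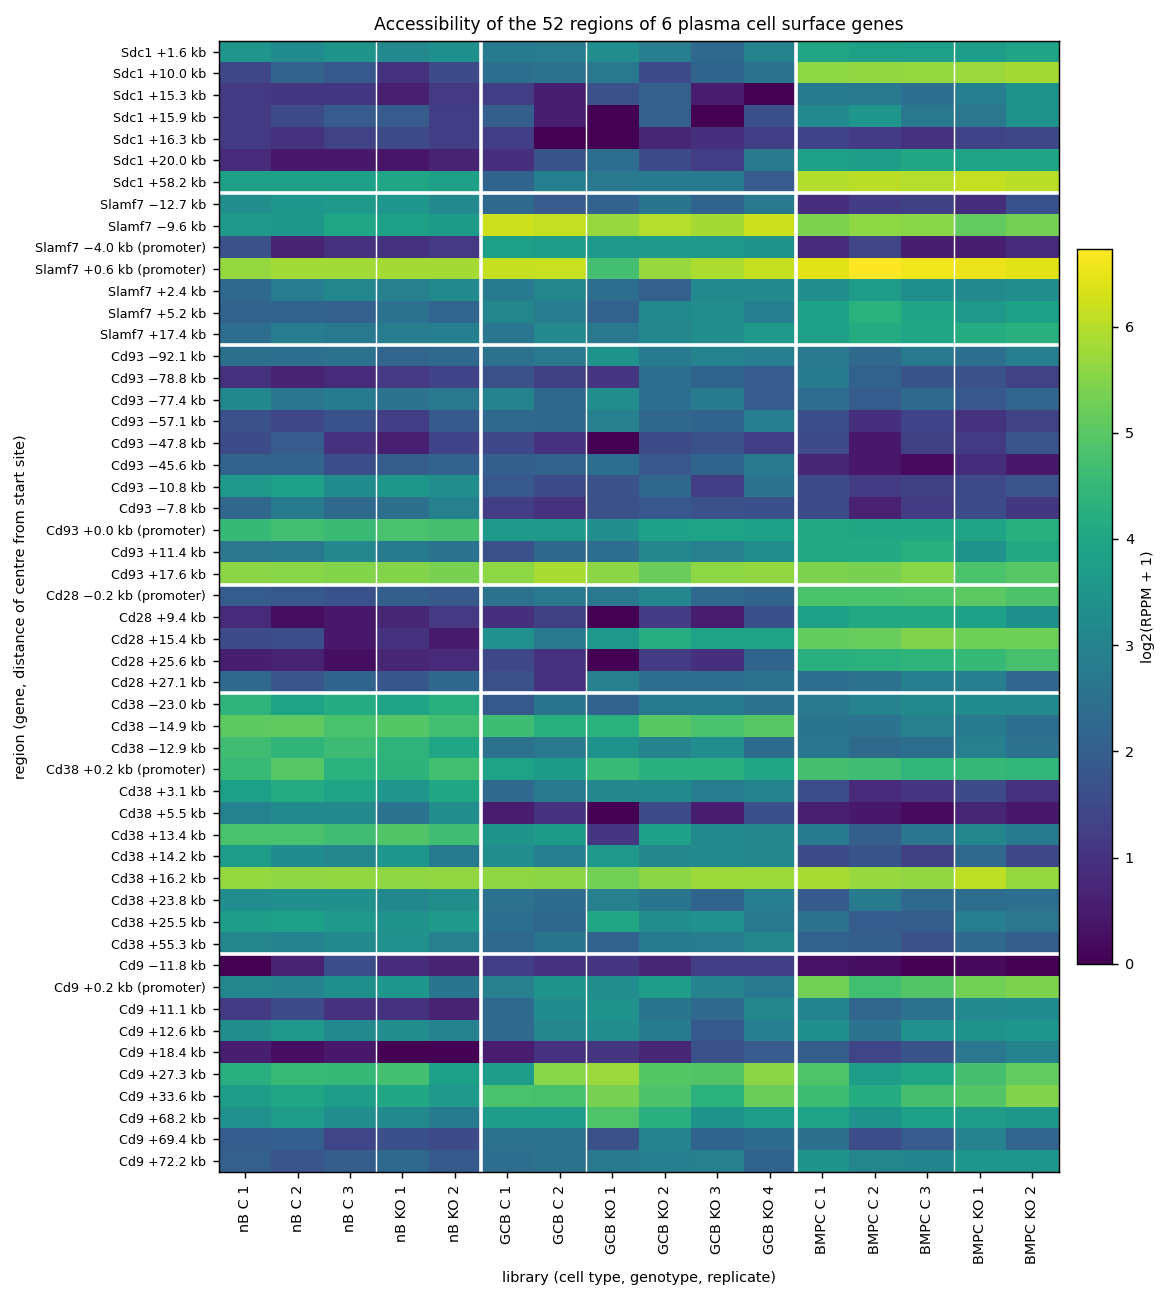
Accessibility as log2(RPPM + 1) (colour) of the 52 member regions (rows, ordered along each gene, labelled by the distance of the centre from the start site) in the 16 libraries (columns, by cell type, genotype and replicate). White lines separate genes and groups. The Cd28 rows from -0.2 to +25.6 kb are brightest in the 5 BMPC libraries, whereas most Cd38 rows are brightest in the 5 nB libraries.

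Sdc1, on the plus strand of chromosome 12, opened in BMPC through its introns and at a distal downstream region, while the member region nearest its start changed less. BMPC were sorted on CD138, the protein of this gene, and its values in BMPC are therefore not independent of the sort. The intronic region at +10.0 kb (chr12:8787639-8788584), the first sequence shown, held 1.71, 3.39 and 2.61 RPPM in nB C, 0.987 and 1.97 in nB KO, 4.40 and 4.68 in GCB C and 5.51, 1.91, 3.51 and 4.89 in GCB KO. BMPC held 46.7, 49.1 and 49.4 RPPM in C and 51.6 and 55.6 in KO. All 5 BMPC libraries lay above all others by a wide margin, and nB and GCB overlapped. The change was 3.82 ± 0.26 (SE, adjusted p = 1.23e-12) from C nB to C BMPC and 3.16 ± 0.29 (SE, adjusted p = 9.61e-10) from C GCB to C BMPC.

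The +58.2 kb region (chr12:8835777-8836929), downstream of the gene, separated all 3 cell types. It held 13.2, 13.4 and 12.8 RPPM in nB C, 14.6 and 13.4 in nB KO, 3.52 and 6.56 in GCB C and 5.51, 5.73, 5.70 and 2.80 in GCB KO. The C libraries of BMPC reached 61.0, 65.1 and 62.4 RPPM and the KO libraries 67.9 and 64.2. GCB were lowest, nB intermediate and BMPC highest, with no overlap. It fell from C nB to C GCB (-1.27 ± 0.23 SE, adjusted p = 6.39e-05) and rose from C GCB to C BMPC (3.45 ± 0.23 SE, adjusted p = 1.92e-12). Without GCB C replicate 1 the fall from nB to GCB was -0.90 (adjusted p = 0.0104) and no longer called. The table gives Sdc1 as the nearest transcript of this region and no gene symbol for the nearest start.

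At +20.0 kb (chr12:8797799-8798508), over an exon and the adjoining intron, BMPC were again separate. This region held 0.731, 0.377 and 0.372 RPPM in nB C, 0.329 and 0.590 in nB KO, 0.880 and 2.34 in GCB C and 4.41, 1.91, 1.32 and 5.59 in GCB KO. For BMPC, 13.3, 12.8 and 15.4 RPPM were measured in C and 13.8 and 14.4 in KO. It rose by 3.32 ± 0.34 (SE, adjusted p = 2.83e-09) from C nB to C BMPC and by 2.56 ± 0.38 (SE, adjusted p = 2.54e-06) from C GCB to C BMPC. BMPC were also highest, at lower levels, in 2 further intronic regions. The +15.9 kb region (chr12:8793739-8794275) held 1.22, 1.88 and 2.79 RPPM in nB C, 2.80 and 1.38 in nB KO, 3.08 and 0.468 in GCB C, 0, 3.18, 0 and 2.10 in GCB KO, 8.19, 10.6 and 5.45 in BMPC C and 5.34 and 9.89 in BMPC KO. The +15.3 kb region (chr12:8793253-8793576) held 1.22, 1.13 and 1.12 RPPM in nB C, 0.494 and 1.18 in nB KO, 1.32 and 0.468 in GCB C, 2.203, 3.18, 0.438 and 0 in GCB KO, 5.85, 5.66 and 4.52 in BMPC C and 6.56 and 9.71 in BMPC KO. BMPC were above all nB and GCB libraries in both. The changes from C nB to C BMPC were 1.61 ± 0.46 (SE, adjusted p = 0.00399) and 1.55 ± 0.40 (SE, adjusted p = 0.00151), respectively. With a pseudocount of 0.1 RPPM neither passed (adjusted p = 0.105 and 0.0461). At +15.9 kb the call was also lost without nB C replicate 1 or 2 (1.42 and 1.61, adjusted p = 0.0258 and 0.0135) or BMPC C replicate 1 or 2 (1.58 and 1.41, adjusted p = 0.0143 and 0.0271).

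No region carrying the Sdc1 symbol was annotated as its promoter, and the nearest was the intronic +1.6 kb region (chr12:8779426-8779985). It held 10.5, 8.48 and 10.2 RPPM in nB C, 8.06 and 9.45 in nB KO, 5.72 and 6.09 in GCB C and 8.81, 6.36, 3.95 and 6.99 in GCB KO. C BMPC were at 14.6, 13.1 and 12.9 RPPM and KO BMPC at 12.8 and 14.4. BMPC were above nB and nB above most GCB libraries. The rise from C GCB to C BMPC was 1.07 ± 0.25 (SE, adjusted p = 7.39e-04), and it was 1.03 (adjusted p = 0.0101) without GCB C replicate 1. From C nB to C BMPC it was 0.44 ± 0.22 (SE, adjusted p = 0.0953), which did not reach 2-fold. The remaining region, at +16.3 kb, held between 0 and 1.81 RPPM and was not called. The promoter itself was covered by a region (chr12:8777644-8778537) that carried the gene's number but no symbol. It was outside the rule and was looked up after its values were seen. It held 21.7, 22.8 and 22.3 RPPM in nB C, 21.9 and 22.2 in nB KO, 21.6 and 15.9 in GCB C and 13.2, 17.2, 13.2 and 20.3 in GCB KO. Values of 51.2, 55.8 and 59.9 RPPM were found in C BMPC and of 58.7 and 53.4 in KO BMPC. It rose by 1.28 ± 0.16 (SE, adjusted p = 6.82e-08) from C nB to C BMPC and by 1.53 ± 0.18 (SE, adjusted p = 3.75e-08) from C GCB to C BMPC, less than each of the 5 called regions of the gene from C nB to C BMPC on the same scale.

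**Figure D2:**
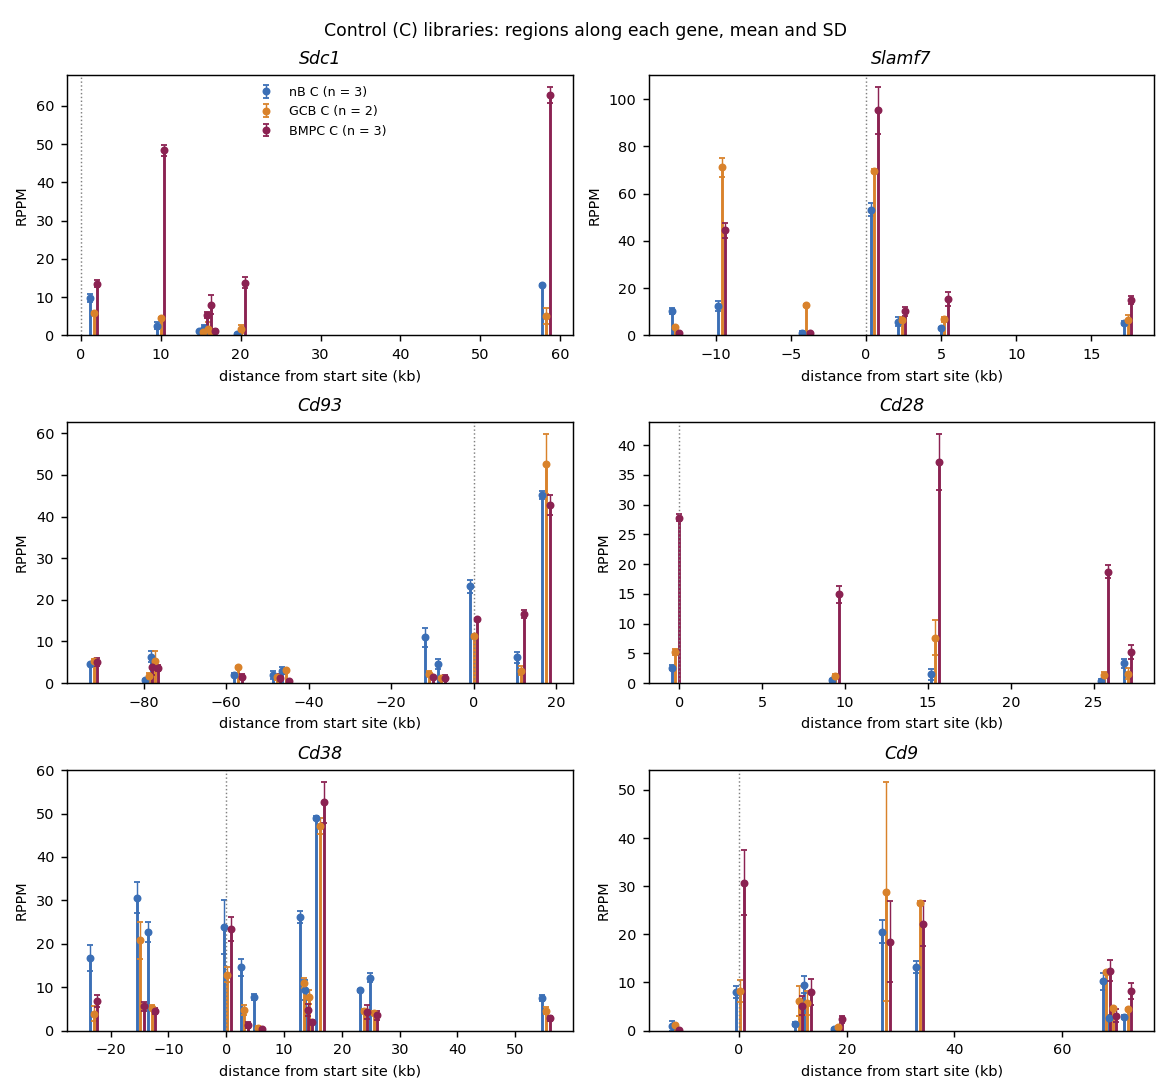
Mean accessibility (RPPM, points and stems, whiskers SD) of each region of the 6 genes in the C libraries against the distance of its centre from the transcription start (kb, dotted line at the start), for nB (blue, n = 3), GCB (orange, n = 2) and BMPC (purple, n = 3). At Sdc1 and Cd28 the tallest stems are BMPC, at Cd38 most are nB, and at Slamf7 the -9.6 and -4.0 kb regions are highest in GCB. Points of the 3 cell types are offset slightly for visibility.

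Cd28, on the plus strand of chromosome 1, was nearly closed in nB and open in BMPC at its promoter, along its introns and at +25.6 kb in its 3′ untranslated region. The promoter region (chr1:60802412-60803509) held 2.92, 2.64 and 2.23 RPPM in nB C, 3.13 and 2.76 in nB KO, 4.84 and 5.62 in GCB C and 5.51, 7.64, 3.95 and 3.50 in GCB KO. In BMPC the values were 27.4, 27.6 and 28.5 in C and 31.8 and 28.0 in KO. All BMPC libraries exceeded all GCB libraries, and all GCB exceeded all nB libraries. The promoter rose by 3.01 ± 0.23 (SE, adjusted p = 1.51e-11) from C nB to C BMPC and by 2.21 ± 0.26 (SE, adjusted p = 7.09e-08) from C GCB to C BMPC, whereas from C nB to C GCB the change was 0.79 ± 0.26 (SE, adjusted p = 0.0158).

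The intronic +15.4 kb region (chr1:60818170-60819089), the second sequence shown, had the largest rise of any member from C nB to C BMPC and was also more open in GCB than in nB. It held 1.95, 2.07 and 0.372 RPPM in nB C, 0.987 and 0.394 in nB KO, 9.68 and 5.62 in GCB C and 11.0, 17.2, 14.03 and 13.98 in GCB KO. BMPC held 34.1, 34.7 and 42.5 RPPM in C and 36.8 and 36.8 in KO. The 3 cell types did not overlap. It rose by 1.86 ± 0.30 (SE, adjusted p = 1.26e-05) from C nB to C GCB and by 2.17 ± 0.30 (SE, adjusted p = 7.69e-07) from C GCB to C BMPC. The rise from C nB to C BMPC was 4.03 ± 0.27 (SE, adjusted p = 5.70e-13). The GCB KO libraries were all above the GCB C libraries, with a difference of 0.82 ± 0.28 (SE, adjusted p = 0.232) that did not pass.

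By contrast, 2 other Cd28 regions opened in BMPC alone. The intronic +9.4 kb region (chr1:60812226-60812977) held 0.731, 0.188 and 0.372 RPPM in nB C, 0.658 and 1.18 in nB KO, 0.880 and 1.41 in GCB C and 0, 1.27, 0.438 and 2.10 in GCB KO. The C libraries of BMPC reached 13.3, 15.9 and 15.6 RPPM and the KO libraries 13.4 and 9.33. The +25.6 kb region (chr1:60828529-60829172), in the 3′ untranslated region, held 0.487, 0.565 and 0.186 RPPM in nB C, 0.658 and 0.787 in nB KO, 1.76 and 0.937 in GCB C, 0, 1.27, 0.877 and 3.50 in GCB KO, 17.6, 18.8 and 19.8 in BMPC C and 21.7 and 26.1 in BMPC KO. BMPC were separate from all other libraries at both. The changes from C nB to C BMPC were 3.49 ± 0.35 (SE, adjusted p = 1.75e-09) and 3.81 ± 0.36 (SE, adjusted p = 7.62e-10), and nB values rested on few reads. The fifth region, at +27.1 kb and also in the 3′ untranslated region, ranged from 0.937 to 6.61 RPPM over all libraries. It rose from C GCB to C BMPC (1.31 ± 0.33 SE, adjusted p = 0.00145) but was not called from C nB to C BMPC (0.54 ± 0.29 SE, adjusted p = 0.121).

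As Cd28 is a gene of T cells, T cell markers are given beside it. Of 8 T cell marker genes, 5 had a region. Over the promoter or nearest region of each, the summed level was 94.8 to 102 RPPM in nB C. It was 34.7 to 39.8 in GCB C and 74.0 to 80.8 in BMPC C, so that BMPC C lay below nB C and above GCB C. The Cd3d region, the largest of the 5 in nB C, had means of 62.3, 13.7 and 41.1 RPPM in nB C, GCB C and BMPC C. The Cd3e region held means of 3.02 RPPM in nB C and 0.538 in BMPC C, and the Cd5 promoter 24.4 and 2.04. A Cd4 region rose, from 0.867 RPPM in nB C to 15.9 in BMPC C, and the Tcf7 promoter had 8.71 and 17.6. Of the 21 T cell marker regions, 10 rose and 2 fell from C nB to C BMPC, against 18.0% and 20.1% of all regions. None of the 5 was at 0 in every library of a group. The flow cytometry panels of the study included CD90.2, a T cell surface protein, among the stains used to gate cells out. The part of T cells in the Cd28 values was not tested.

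Cd9, on the minus strand of chromosome 6, opened in BMPC at its promoter, and several downstream regions were open in GCB as well or varied among libraries. The promoter region (chr6:125444144-125445096), the third sequence shown, held 7.55, 6.97 and 9.31 RPPM in nB C, 10.7 and 5.12 in nB KO, 6.60 and 9.84 in GCB C and 8.81, 12.7, 7.01 and 5.59 in GCB KO. For BMPC, 38.1, 24.8 and 29.3 RPPM were measured in C and 38.6 and 42.4 in KO. nB and GCB overlapped and all BMPC libraries were higher. The promoter rose by 1.81 ± 0.25 (SE, adjusted p = 5.18e-07) from C nB to C BMPC and by 1.78 ± 0.28 (SE, adjusted p = 5.72e-06) from C GCB to C BMPC, with a change of 0.03 ± 0.28 (SE, adjusted p = 0.943) from C nB to C GCB.

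The intronic +11.1 kb region (chr6:125433542-125433942) was open in both GCB and BMPC. It held 1.22, 1.88 and 0.931 RPPM in nB C, 0.987 and 0.590 in nB KO, 3.96 and 8.43 in GCB C and 9.91, 5.09, 3.95 and 7.69 in GCB KO. C BMPC were at 7.28, 3.65 and 4.67 RPPM and KO BMPC at 8.26 and 8.59. All GCB and BMPC libraries were above all nB libraries. It rose by 1.56 ± 0.36 (SE, adjusted p = 8.94e-04) from C nB to C GCB and by 1.38 ± 0.32 (SE, adjusted p = 5.99e-04) from C nB to C BMPC, and the former was 1.101 (adjusted p = 0.0527) without GCB C replicate 2. The intronic +18.4 kb region (chr6:125426245-125426630) held 0.487, 0.188 and 0.372 RPPM in nB C, 0 and 0 in nB KO, 0.440 and 0.937 in GCB C and 1.101, 0.636, 2.19 and 2.80 in GCB KO. Values of 2.99, 1.64 and 2.34 RPPM were found in C BMPC and of 5.34 and 7.09 in KO BMPC. Both nB KO libraries had no read there, and against a floor of 3 reads over that group BMPC KO were at least 22.4-fold higher. From C nB to C BMPC it rose by 1.29 ± 0.34 (SE, adjusted p = 0.00191), a call lost without nB C replicate 2 (1.20, adjusted p = 0.0119) or BMPC C replicate 1 (1.14, adjusted p = 0.0146).

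Farther downstream, the +72.2 kb region (chr6:125372333-125372890) held 3.17, 2.45 and 2.98 RPPM in nB C, 3.95 and 2.76 in nB KO, 4.40 and 4.68 in GCB C and 5.51, 6.36, 6.58 and 3.50 in GCB KO. In BMPC the values were 10.1, 7.30 and 7.16 in C and 10.6 and 10.6 in KO. BMPC were above all nB and GCB libraries, and the change from C nB to C BMPC was 1.24 ± 0.26 (SE, adjusted p = 1.52e-04). This region and those at +68.2 and +69.4 kb had Plekhg6 as their nearest start. The remaining 6 regions of Cd9 were not called between C cell types. Of these, the +27.3 kb region held 12.8 and 44.97 RPPM in the 2 GCB C libraries and ranged from 12.8 to 51.8 over all libraries, and the +33.6 kb region ranged from 11.4 to 42.7. Megakaryocytes, which also carry CD9, were followed by 5 marker genes, of which 3 had a region. Their summed level was 13.0 to 13.9 RPPM in nB C, 18.5 to 20.1 in GCB C and 20.8 to 26.7 in BMPC C. From C nB to C BMPC, 1 of their 6 regions rose, against 18.0% of all regions. Their part in the Cd9 values was not tested.

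Slamf7, on the minus strand of chromosome 1, had an open promoter in all cell types and 2 upstream regions that were highest in GCB. The promoter region (chr1:173577737-173579433) held 50.2, 54.6 and 55.1 RPPM in nB C, 55.3 and 55.9 in nB KO, 69.1 and 70.3 in GCB C and 25.3, 50.3, 58.7 and 69.2 in GCB KO. BMPC held 85.4, 105 and 94.98 RPPM in C and 92.1 and 85.9 in KO. BMPC were above all other libraries. The GCB C libraries lay above nB, whereas GCB KO spread from below to above nB, lowest in replicate 1, the library with the fewest reads. The change from C nB to C BMPC was 0.82 ± 0.19 (SE, adjusted p = 6.74e-04) and did not reach 2-fold, and from C nB to C GCB it was 0.38 ± 0.22 (SE, adjusted p = 0.159).

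The upstream -9.6 kb region (chr1:173588253-173589239) held 11.2, 10.9 and 14.7 RPPM in nB C, 13.2 and 11.8 in nB KO, 73.9 and 68.4 in GCB C and 50.7, 61.7, 56.1 and 74.1 in GCB KO. The C libraries of BMPC reached 41.2, 47.3 and 45.00 RPPM and the KO libraries 33.9 and 38.8. GCB were highest, BMPC intermediate and nB lowest, with no overlap. It rose by 2.45 ± 0.16 (SE, adjusted p = 2.62e-12) from C nB to C GCB and by 1.79 ± 0.14 (SE, adjusted p = 2.59e-11) from C nB to C BMPC, and the step from C GCB to C BMPC was -0.67 ± 0.16 (SE, adjusted p = 0.00101), which did not reach 2-fold. The -4.0 kb region (chr1:173583005-173583265), which the table also annotated as promoter, held 2.19, 0.565 and 0.931 RPPM in nB C, 0.987 and 1.18 in nB KO, 13.2 and 12.2 in GCB C and 11.0, 11.5, 11.0 and 9.79 in GCB KO. For BMPC, 0.780, 1.64 and 0.467 RPPM were measured in C and 0.486 and 0.747 in KO. All GCB libraries stood above all others, and nB and BMPC overlapped at low values. It rose by 2.68 ± 0.34 (SE, adjusted p = 3.76e-07) from C nB to C GCB and fell again from C GCB to C BMPC (-2.84 ± 0.34 SE, adjusted p = 8.02e-08).

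The -12.7 kb region (chr1:173591634-173592030), the fourth sequence shown, held 9.01, 10.6 and 11.5 RPPM in nB C, 10.5 and 8.07 in nB KO, 3.96 and 2.81 in GCB C and 3.30, 5.09, 3.51 and 5.59 in GCB KO. C BMPC were at 0.910, 1.28 and 1.40 RPPM and KO BMPC at 0.850 and 2.24. It was highest in nB, intermediate in GCB and lowest in BMPC, with no overlap, and the change from C nB to C BMPC was -2.37 ± 0.28 (SE, adjusted p = 4.41e-08). The fall from C nB to C GCB (-1.38 ± 0.32 SE, adjusted p = 8.51e-04) was -1.19 (adjusted p = 0.0203) without GCB C replicate 2. In the opposite direction, the intronic +5.2 kb region (chr1:173573767-173574104) held 3.41, 3.39 and 3.16 RPPM in nB C, 4.77 and 3.54 in nB KO, 7.48 and 6.09 in GCB C and 3.30, 8.27, 8.77 and 6.29 in GCB KO. Values of 13.1, 18.6 and 14.3 RPPM were found in C BMPC and of 11.3 and 13.3 in KO BMPC. It rose by 1.91 ± 0.26 (SE, adjusted p = 5.29e-07) from C nB to C BMPC. Its rise from C GCB to C BMPC (1.06 ± 0.29 SE, adjusted p = 0.00357) was lost without GCB C replicate 1 or 2 or BMPC C replicate 2, where it was 1.19, 0.93 and 0.92 (adjusted p = 0.0124, 0.0457 and 0.0242), and it was 0.99 with mitochondrial reads left out of the totals. The +17.4 kb region, downstream of the gene, rose from C nB to C BMPC (1.33 ± 0.23 SE, adjusted p = 1.62e-05), and the +2.4 kb region was not called. Adjacent regions of Slamf7 thus differed in the cell type in which they were highest. NK cells, which also carry SLAMF7, were followed by 5 marker genes, of which 3 had a region. Their summed level was 5.21 to 9.99 RPPM in nB C, 19.2 to 20.2 in GCB C and 12.8 to 17.9 in BMPC C. In these groups, the means were 1.83, 11.3 and 6.61 RPPM for Eomes and 1.02, 4.76 and 2.97 for Klrb1c. Tbx21 had 4.28, 3.63 and 5.95 RPPM. The part of NK cells in the Slamf7 values was not tested.

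Cd93, on the minus strand of chromosome 2, was most open at its promoter in nB. The promoter region (chr2:148268977-148269584) held 21.7, 24.9 and 23.1 RPPM in nB C, 26.8 and 25.8 in nB KO, 11.4 and 11.2 in GCB C and 8.81, 13.4, 14.03 and 13.3 in GCB KO. In BMPC the values were 15.7, 15.3 and 15.4 in C and 14.3 and 17.5 in KO. nB were highest and BMPC above all GCB libraries, with no overlap. The changes were -0.97 ± 0.19 (SE, adjusted p = 2.01e-04) from C nB to C GCB and -0.55 ± 0.17 (SE, adjusted p = 0.00814) from C nB to C BMPC, neither of which reached 2-fold, and the region was therefore not called in C. The upstream -10.8 kb region (chr2:148279829-148280342), the fifth sequence shown, held 11.4, 12.8 and 8.56 RPPM in nB C, 10.9 and 9.05 in nB KO, 2.64 and 1.87 in GCB C and 2.203, 3.82, 1.32 and 4.89 in GCB KO. BMPC held 1.82, 1.28 and 1.40 RPPM in C and 1.82 and 2.43 in KO. All nB libraries were above all others, and it fell by 1.87 ± 0.35 on the log2 scale from C nB to C GCB (adjusted p = 8.08e-05) and changed by -2.25 ± 0.31 (SE, adjusted p = 5.01e-07) from C nB to C BMPC.

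The +11.4 kb region (chr2:148257545-148258165), downstream of the gene, was highest in BMPC and held 5.36, 5.46 and 7.63 RPPM in nB C, 5.92 and 4.92 in nB KO, 2.199 and 3.75 in GCB C and 4.41, 7.64, 6.58 and 9.09 in GCB KO. The C libraries of BMPC reached 15.7, 16.4 and 17.6 RPPM and the KO libraries 9.84 and 15.7. All BMPC libraries were above all others, and GCB overlapped with nB. It rose by 1.31 ± 0.25 (SE, adjusted p = 6.27e-05) from C nB to C BMPC and by 2.17 ± 0.28 (SE, adjusted p = 3.02e-07) from C GCB to C BMPC. The +17.6 kb region (chr2:148251330-148252167) was the most open of this gene and held 45.8, 45.8 and 44.1 RPPM in nB C, 43.9 and 40.9 in nB KO, 47.5 and 57.6 in GCB C and 46.3, 35.6, 46.9 and 48.9 in GCB KO. For BMPC, 42.1, 40.9 and 45.5 RPPM were measured in C and 27.5 and 30.4 in KO. It was not called between any cell types of C, and both BMPC KO libraries lay below all others.

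Of the 6 regions more than 40 kb upstream of Cd93, 2 were called between C cell types, and a further region, at -57.1 kb, was called only from KO GCB to KO BMPC (-1.41 ± 0.33 SE, adjusted p = 7.24e-04). The -45.6 kb region (chr2:148314723-148314997) held 3.41, 3.39 and 2.05 RPPM in nB C, 2.96 and 3.35 in nB KO, 3.08 and 3.28 in GCB C, 4.41, 2.55, 3.51 and 5.59 in GCB KO, 0.650, 0.365 and 0.156 in BMPC C and 0.850 and 0.373 in BMPC KO. The -78.8 kb region (chr2:148347890-148348246) held 0.974, 0.565 and 0.744 RPPM in nB C, 1.15 and 1.57 in nB KO, 2.199 and 1.41 in GCB C, 1.101, 4.46, 3.51 and 2.80 in GCB KO, 5.72, 3.28 and 2.34 in BMPC C and 2.19 and 1.49 in BMPC KO. The former was lower in all BMPC libraries than in any nB or GCB library (-1.50 ± 0.31 SE, adjusted p = 1.56e-04 from C nB to C BMPC), and the latter rose by 1.39 ± 0.35 (SE, adjusted p = 0.00124), or 1.11 (adjusted p = 0.0170) without BMPC C replicate 1. The -7.8 kb region fell from C nB to C GCB (-1.35 ± 0.34 SE, adjusted p = 0.00237) and was lower in C BMPC as well (-1.31 ± 0.31 SE, adjusted p = 6.46e-04). Of 10 marker genes of myeloid cells, which also carry CD93, 7 had a region, with a summed level of 43.9 to 45.2 RPPM in nB C, 28.1 to 42.7 in GCB C and 40.0 to 45.3 in BMPC C. The 5 endothelial and stromal genes summed to 54.3 to 57.7, 67.9 to 77.9 and 35.8 to 49.7 RPPM, respectively. Among the stains used to gate cells out were also the myeloid proteins CD11b, CD11c and Ly6-G. The part of these cell types in the Cd93 values was not tested.

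Cd38, on the plus strand of chromosome 5, was less accessible in C BMPC than in C nB at most of its regions but not at its promoter. The promoter region (chr5:44259664-44260841) held 22.2, 30.9 and 18.8 RPPM in nB C, 19.6 and 24.99 in nB KO, 14.1 and 11.7 in GCB C and 22.0, 18.5, 18.4 and 14.7 in GCB KO. C BMPC were at 25.6, 24.3 and 20.4 RPPM and KO BMPC at 21.4 and 20.5. nB and BMPC overlapped, and the changes were -0.82 ± 0.20 (SE, adjusted p = 0.00167) from C nB to C GCB and -0.01 ± 0.18 (SE, adjusted p = 0.975) from C nB to C BMPC. The intronic +16.2 kb region, the most open of the gene, ranged from 38.5 to 66.6 RPPM over the 16 libraries and was not called either. The other 10 regions all fell from C nB to C BMPC, with changes between -2.79 and -1.02.

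The level of GCB relative to nB and BMPC differed among these 10 regions. The upstream -14.9 kb region (chr5:44244656-44245632) held 32.2, 33.2 and 26.6 RPPM in nB C, 29.8 and 24.8 in nB KO, 23.8 and 17.8 in GCB C and 18.7, 31.2, 26.7 and 30.8 in GCB KO. Values of 5.07, 4.93 and 6.70 RPPM were found in C BMPC and of 5.71 and 4.48 in KO BMPC. GCB overlapped with nB, and all BMPC libraries were lower. The change was -0.55 ± 0.22 (SE, adjusted p = 0.0430) from C nB to C GCB, which was not called, and -1.73 ± 0.22 (SE, adjusted p = 1.91e-07) from C GCB to C BMPC. The intronic +5.5 kb region (chr5:44265422-44265668), by contrast, held 6.82, 8.10 and 8.003 RPPM in nB C, 4.94 and 8.86 in nB KO, 0.440 and 0.937 in GCB C and 0, 1.91, 0.438 and 2.10 in GCB KO. In BMPC the values were 0.520, 0.365 and 0.156 in C and 0.607 and 0.373 in KO. It was low in GCB as well. The 2 GCB C libraries had 3 reads there in all and the 3 nB C libraries 114, a ratio of 11.3 (95% exact interval 3.78 to 55.8, counting error only), and the change from C nB to C BMPC was -2.69 ± 0.37 (SE, adjusted p = 5.09e-07).

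The intronic +3.1 kb region (chr5:44262992-44263379), the sixth sequence shown, held 12.9, 16.8 and 13.96 RPPM in nB C, 10.4 and 15.5 in nB KO, 3.96 and 5.62 in GCB C and 7.71, 8.27, 6.14 and 6.99 in GCB KO. BMPC held 2.08, 0.730 and 1.09 RPPM in C and 1.94 and 0.933 in KO. It fell at each step, with changes of -1.43 ± 0.30 (SE, adjusted p = 3.55e-04) from C nB to C GCB and of -1.36 ± 0.30 (SE, adjusted p = 4.42e-04) from C GCB to C BMPC, with no overlap among cell types. Without GCB C replicate 1 the first step was -1.22 (adjusted p = 0.0133), and without GCB C replicate 2 the second was -1.15 (adjusted p = 0.0156). With quantile normalization the second step was -0.99 (adjusted p = 0.00846), just under 2-fold. The +13.4 kb region (chr5:44273252-44273735), also intronic, held 27.0, 26.8 and 24.6 RPPM in nB C, 29.0 and 24.2 in nB KO, 10.1 and 11.7 in GCB C and 1.101, 13.4, 8.33 and 7.69 in GCB KO. The C libraries of BMPC reached 5.85, 3.10 and 5.29 RPPM and the KO libraries 7.53 and 5.97. All nB libraries were above all others, and the change from C nB to C BMPC was -2.27 ± 0.39 (SE, adjusted p = 1.26e-05). The intronic +25.5 kb region (chr5:44285287-44285826) held 12.7, 13.0 and 11.0 RPPM in nB C, 10.0 and 11.2 in nB KO, 4.40 and 3.75 in GCB C and 15.4, 8.91, 9.65 and 5.59 in GCB KO. For BMPC, 4.68, 2.92 and 2.96 RPPM were measured in C and 6.32 and 5.41 in KO. It fell from C nB to C GCB (-1.38 ± 0.29 SE, adjusted p = 4.00e-04) and was higher in each GCB KO than in each GCB C library. Among the other regions, those at -23.0 and -12.9 kb fell from C nB to C GCB (-1.90 ± 0.27 SE, adjusted p = 2.70e-06 and -1.93 ± 0.27 SE, adjusted p = 2.04e-06), and that at +14.2 kb fell from C GCB to C BMPC (-1.58 ± 0.31 SE, adjusted p = 1.22e-04). The 3 upstream regions had Bst1, the neighbouring gene of a related ectoenzyme, as their nearest transcript.

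**Figure D3:**
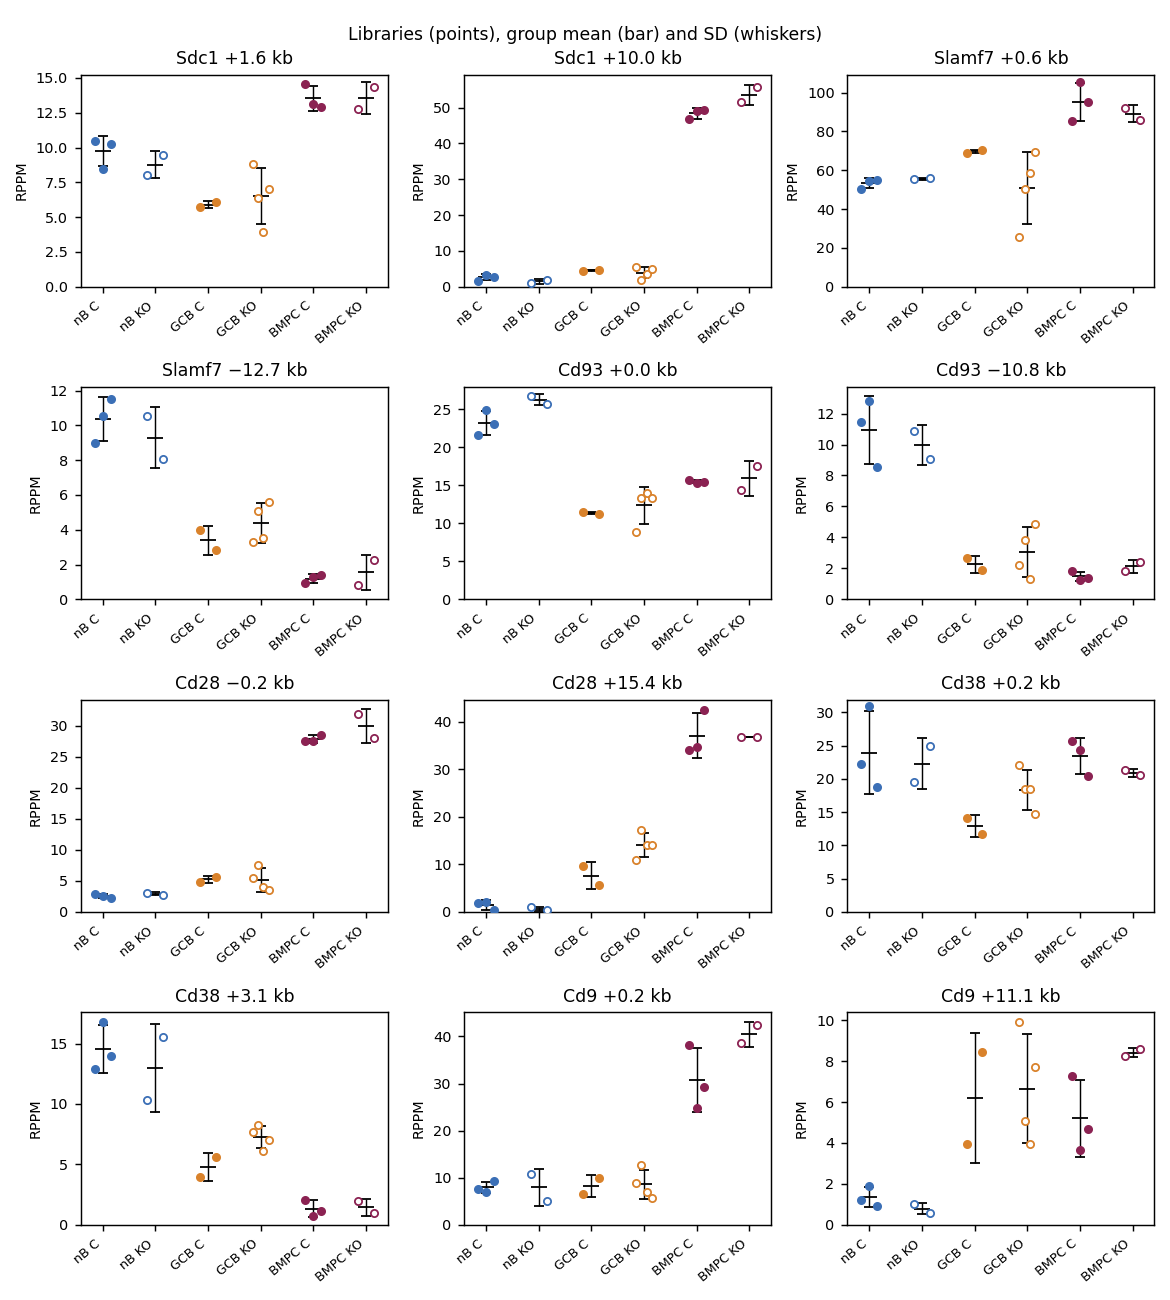
Accessibility (RPPM) of 12 regions in each library (points, filled for C and open for KO), with the mean of each group (bar) and its SD (whiskers); for each gene the region nearest the start and the other region with the largest change from C nB to C BMPC are plotted. From left to right the groups are nB C (n = 3), nB KO (2), GCB C (2), GCB KO (4), BMPC C (3) and BMPC KO (2). BMPC stand above nB and GCB at both Sdc1 and both Cd28 regions and at the Slamf7 and Cd9 promoters, and nB stand above BMPC at Slamf7 -12.7 kb, both Cd93 regions and Cd38 +3.1 kb.

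The comparison of KO with C asked whether loss of the de novo methyltransferases altered accessibility within a cell type. No member region was called in nB, GCB or BMPC by limma, against 0% of all regions in nB, 0.0317% in GCB and 0.104% in BMPC. At an unadjusted p under 0.05 there were 0, 6 and 5 member regions, respectively, against 1.67%, 11.8% and 9.55% of all regions, so that the members lay near the background in GCB and BMPC. On the recovered reads, edgeR's quasi-likelihood test called 0 in each cell type, against 0.00604%, 0.00151% and 1.96% of all regions, with an unadjusted p under 0.05 in 4, 5 and 11 member regions, against 4.60%, 6.15% and 18.4%. DESeq2 also called 0 in each, against 0.00151%, 0% and 0.777% of the regions with an adjusted p, with an unadjusted p under 0.05 in 1, 5 and 6 member regions, against 2.38%, 4.83% and 13.2%. The likelihood ratio test of edgeR called 0, 0 and 1 member regions, against 0.0136%, 0.0257% and 2.84% of all regions, with an unadjusted p under 0.05 in 4, 5 and 14 member regions, against 5.66%, 7.15% and 20.2%. With at most 4 libraries a group, these counts describe what could be called in these libraries and do not show that the genotypes were alike.

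The called region of the likelihood ratio test was Cd9 +18.4 kb, where BMPC KO (5.34 and 7.09 RPPM) lay above BMPC C (2.99, 1.64 and 2.34 RPPM). The difference was 1.36 in that test (adjusted p = 0.00301) and 1.13 ± 0.38 (SE, adjusted p = 0.199) in limma. The other Cd9 regions with the smallest p values in BMPC, at +33.6 and +27.3 kb, were also higher in KO (0.68 ± 0.24 SE, adjusted p = 0.227 and 0.72 ± 0.35 SE, adjusted p = 0.511), and the Cd9 promoter differed by 0.41 ± 0.28 (SE, adjusted p = 0.784). At Cd93 +17.6 kb, BMPC KO (27.5 and 30.4 RPPM) lay below BMPC C (42.1, 40.9 and 45.5 RPPM), with the smallest p of all members in this cell type and a difference of -0.55 ± 0.14 (SE, adjusted p = 0.0552). For the remaining genes, the regions with the smallest p in BMPC were Sdc1 +15.3 kb (0.51 ± 0.44 SE, adjusted p = 0.897), Slamf7 -9.6 kb (-0.29 ± 0.16 SE, adjusted p = 0.643), Cd28 +9.4 kb (-0.38 ± 0.39 SE, adjusted p = 0.944) and Cd38 +25.5 kb (0.62 ± 0.29 SE, adjusted p = 0.495).

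In GCB, the region with the smallest p was Cd28 +27.1 kb, which was higher in KO (1.28 ± 0.31 SE, adjusted p = 0.0757), followed by Cd93 +11.4 kb (0.99 ± 0.27 SE, adjusted p = 0.114) and Cd38 +25.5 kb (1.03 ± 0.28 SE, adjusted p = 0.115). At these 3 regions the 4 KO libraries lay above the 2 C libraries, with few reads behind each value. The regions were picked by their p in this comparison, so that the separation follows in part from the choice. The share of female pools also differed between GCB C and GCB KO. The median difference over the members was 0.17 in GCB and 0.12 in BMPC, against 0.03 in both over all regions, and -0.07 in nB against -0.01.

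The change from nB to BMPC was examined in KO as well. From KO nB to KO BMPC, 17 regions rose and 10 fell, against 18.4% and 16.9% of all regions. Of the 18 that rose in C, 16 also rose in KO, and of the 14 that fell in C, 10 also fell in KO, none being called in the opposite direction. The same shares over all regions were not counted, so that these numbers do not set the members apart from other regions. From KO nB to KO GCB, 8 rose and 7 fell, against 18.4% and 7.84% of all regions, and from KO GCB to KO BMPC 12 rose and 7 fell, against 12.1% and 19.9%. These splits depended on the scaling: for KO nB to KO GCB, TMM gave 6 risen and 9 fallen and quantile normalization, which shifted the median of all regions by -0.19, gave 7 and 10, and for KO GCB to KO BMPC quantile normalization gave 15 and 5. Over all regions, 12205 rose and 5188 fell from KO nB to KO GCB (7679 and 7477 with quantile normalization), and 8013 rose and 13138 fell from KO GCB to KO BMPC (10270 and 10345). The largest rises in KO were at Cd28 +15.4 kb (4.51 ± 0.33 SE, adjusted p = 9.05e-12) and Sdc1 +10.0 kb (4.49 ± 0.32 SE, adjusted p = 7.24e-12), and the largest fall was at Cd38 +3.1 kb (-2.52 ± 0.33 SE, adjusted p = 3.53e-07).

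A difference between genotypes in the change between cell types itself was tested by interaction terms. No member region was called by limma for nB to GCB, nB to BMPC or GCB to BMPC, against 0% of all regions in each, and 6, 2 and 4 member regions had an unadjusted p under 0.05, against 6.21%, 5.24% and 8.32% of all regions. The count tests called 0 member regions in each as well. Over all regions, edgeR's quasi-likelihood test called 0%, 0.0967% and 0.0317%, its likelihood ratio test 0.00453%, 0.370% and 0.130%, and DESeq2 0%, 0.0738% and 0.0579% of those with an adjusted p. An unadjusted p under 0.05 was found in 9, 9 and 6 member regions by the quasi-likelihood test (6.15%, 10.5% and 8.66% of all regions), in 9, 8 and 6 by the likelihood ratio test (7.30%, 12.0% and 10.0%) and in 6, 5 and 5 by DESeq2 (4.29%, 7.02% and 6.12%). The interactions with the smallest p were at Cd28 +15.4 kb for nB to GCB (1.30 ± 0.41, adjusted p = 0.712, greater in KO), Cd9 +18.4 kb for nB to BMPC (1.55 ± 0.53, adjusted p = 0.652, greater in KO, with both nB KO libraries at 0 reads) and Cd93 +11.4 kb for GCB to BMPC (-1.37 ± 0.39, adjusted p = 0.248, the rise being smaller in KO).

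**Figure D4:**
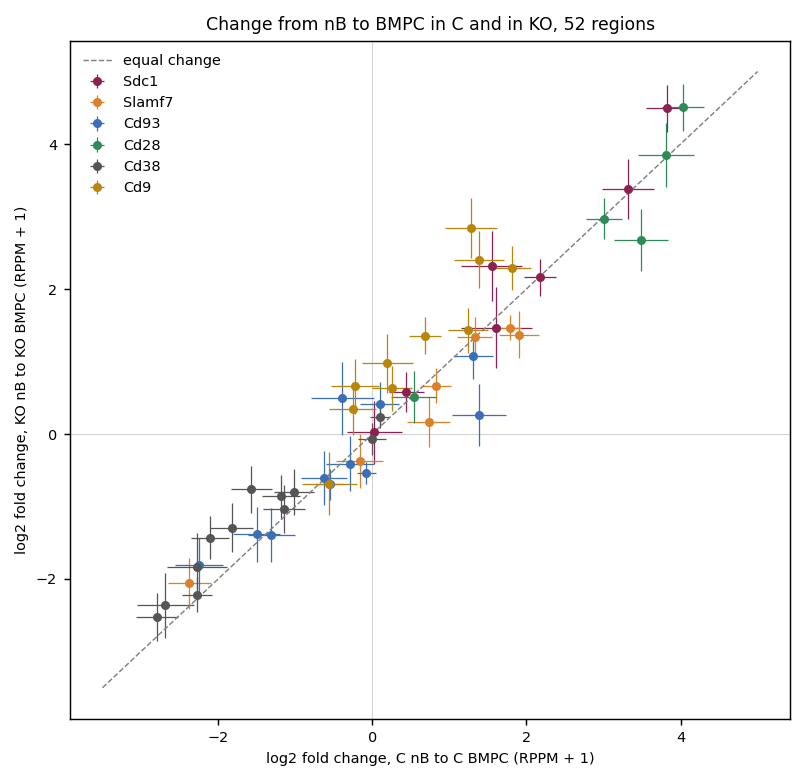
Change from nB to BMPC in C (x axis) and in KO (y axis) of the 52 member regions, as log2 fold change of RPPM + 1 with SE (whiskers), coloured by gene; the dashed line marks equal change. Most Cd28 and Sdc1 regions lie at the upper right and most Cd38 regions at the lower left. Sdc1 +16.3 kb and the Cd38 regions at +0.2 and +16.2 kb lie near the origin. No region called in C was called in the opposite direction in KO.

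Related genes were counted in the same fit from C nB to C BMPC, where 18.0% of all regions rose and 20.1% fell. Of 199 regions of 18 other plasma cell surface genes, 62 rose and 34 fell from C nB to C BMPC (median 0.37, against 0.03 over all regions). Among them, the promoter regions of Tnfrsf17 and Epcam, the latter encoding an epithelial adhesion molecule, rose by 3.93 ± 0.31 (SE, adjusted p = 1.97e-11) and 1.92 ± 0.19 (SE, adjusted p = 1.88e-09), and a region of Cd81, which encodes a tetraspanin like CD9, by 1.70 ± 0.26 (SE, adjusted p = 2.65e-06). Of 155 regions of 18 B cell surface genes, 10 rose and 89 fell (median -1.35). The promoter regions of Fcer2a, of Cxcr5, the receptor that directs B cells into follicles, and of Cd22, an inhibitory coreceptor of the B cell receptor, changed by -4.39 ± 0.26 (SE, adjusted p = 7.09e-14), -2.96 ± 0.17 (SE, adjusted p = 4.56e-14) and -2.90 ± 0.27 (SE, adjusted p = 3.97e-10), respectively.

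Of 139 regions of 22 relatives of the 6 genes, 22 rose and 43 fell (median -0.38), against 18.0% and 20.1% of all regions. The promoter region of Ctla4, the inhibitory receptor that shares its ligands with CD28, rose from a mean of 1.98 RPPM in nB C and 2.72 in GCB C to 20.3 in BMPC C (2.86 ± 0.28 SE, adjusted p = 1.41e-09 from nB). Those of the SLAM family genes Slamf8 and Cd244 changed by 1.67 ± 0.30 (SE, adjusted p = 3.25e-05) and -1.45 ± 0.31 (SE, adjusted p = 2.15e-04). Of 164 regions of 18 ligands and partners, 34 rose and 42 fell (median -0.04), near the same shares of all regions. The genes of the CD28 ligands moved in opposite directions, with a change of 2.76 ± 0.22 (SE, adjusted p = 2.71e-11) at the Cd80 promoter and of -1.59 ± 0.18 (SE, adjusted p = 2.83e-08) at the Cd86 promoter. Sh2d1b1, which encodes the SLAM-binding adaptor EAT-2, rose by 2.82 ± 0.26 (SE, adjusted p = 3.46e-10). Of 237 regions of 10 plasma cell regulators, 83 rose and 41 fell (median 0.31), against the same 18.0% and 20.1% of all regions. A region of Ell2, an elongation factor used in immunoglobulin secretion, rose by 1.58 ± 0.43 (SE, adjusted p = 0.00262).

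The promoter patterns were set beside those of 12270 promoter regions whose mean was 5 RPPM or more, by Pearson's r of log2(RPPM + 1) over the 16 libraries, which are described without a test since the values of a library share its depth. These regions were annotated as promoter of some gene and are named by their nearest start or, where that was missing, their nearest transcript. A region therefore need not be the promoter of the gene it is named by. Most similar to the Cd28 promoter were regions named by Vcp (0.989), Plec (0.988) and Sema4b (0.986). The Cd9 promoter was closest to Avpi1 (0.961), Kcnk6 (0.960) and Fut1 (0.958), the Slamf7 promoter to Tada1 (0.949), Rfesd (0.944) and Zkscan14 (0.942) and the Slamf7 -4.0 kb region to Mtmr14 (0.976), Dhrs3 (0.972) and Susd4 (0.969). The Cd93 promoter was closest to Sh3tc1 (0.965), Hist1h2bh (0.962) and Nsun6 (0.954), the Sdc1 +1.6 kb region to Ahnak (0.959), Slc25a39 (0.949) and Ccndbp1 (0.948) and the Cd38 promoter to Zscan26 (0.856), Akirin2 (0.854) and Mr1 (0.850), the lowest values of the 6 genes.

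Position was compared last. Of the 52 regions, 6 were annotated as promoter of their own member gene (11.5%). The share of all regions annotated as promoter of any gene was 21.7%, counted by a wider rule and therefore not directly comparable. The region over the Sdc1 promoter lay outside the member rule and is not among the 6. Of the other members, 20 were intronic, 14 upstream, 8 downstream, 2 in a 3′ untranslated region and 2 over an exon and an intron. Their median width was 521.5 bases, against 510 over all regions. From C nB to C BMPC, 2 of the 6 promoter regions rose and none fell, against 11.2% and 6.41% of the regions annotated as promoter of any gene. Of the other 46 regions 16 rose and 14 fell, against 19.9% and 23.9% of all other regions. The difference between the places was not tested, and members and all regions were divided into places by these unlike rules. At Cd38, Slamf7 and Cd93 the promoters were not called from C nB to C BMPC, where distal regions were.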

How the data were processed

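ATAC-seq reads were mapped to mm9 and peaks called in each sample by the authors, who merged them into 1 set of regions and divided the reads in each region by the reads in all regions of the library. The deposited values are therefore RPM over regions (RPPM), summing to 1000000 in each of 16 libraries. The submitters' notes name Bowtie 1.1.1, MACS2 2.1.0.20140616, Picard 1.127 and edgeR 3.12.1. The authors' columns of fold changes and p-values were not used. The 16 libraries were assigned to groups by their labels. Of 17 samples in the labels, 1 had no column used here.

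All values (100% at a tolerance of 0.001) were whole multiples of what 1 read is worth, and reads were recovered from them. Replicates within a group differed by more than sampling noise, so none was counted as a duplicate. Nothing in the labels says which libraries were prepared together. The deletion of Dnmt3a and Dnmt3b was not checked here. Intervals and floors cover counting error only.

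log2(RPPM + 1) was fitted with limma 3.58.1 (6 group means, 16 libraries, moderated variances with a trend) in R 4.3.3, with Benjamini-Hochberg adjustment over 66177 regions. Calls required 2-fold change or more and an adjusted p of 0.01 or less. There were 9 comparisons and 3 interactions. The procedure was also run on simulated data, and the outcome is not reported here. Alternatives were TMM scaling, quantile normalization, totals without mitochondrial reads, other pseudocounts, a minimum level, edgeR 4.0.16 and DESeq2 1.42.0 on the recovered reads, a fit of only the groups compared, another threshold, a replicate block and the omission of each library.

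The members, the lists of related genes, the markers and the tests were chosen with earlier results of these data known. Values in every library are given for the promoter regions of each gene (or the region nearest its start), for up to 4 called regions per gene with the largest changes between C cell types, and for the region with the smallest p between KO and C in BMPC. Other members are given by ranges and counts; those named with a change were chosen after their values were seen. Up to 3 genes are named per list by the size of their change. Positions are those of the table (mm9). Sequences, gene starts and untranslated regions came from NCBIM37 with its GENCODE annotation. Some items of the labels and marker lists are not reported here.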

Additional observations from a re-analysis of the deposited data

Results flagged for a closer look

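Among 31 regions named in the report, 2 had a GCB KO library that stood apart from the other 3 by Dixon's criterion, which chance gives in about 1 of 20 groups. At Sdc1 +58.2 kb, GCB KO replicate 4 held 2.80 RPPM, whereas the others held 5.51 to 5.73 (ratio of gap to range 0.924). At the Cd93 promoter (+0.0 kb), GCB KO replicate 1, the library with the fewest reads, held 8.81 RPPM and the others 13.3 to 14.03 (ratio 0.857). Without that library, the fall of the Cd93 promoter from KO nB to KO GCB was -0.91 in the limma fit (adjusted p = 4.58e-05), under 2-fold, where it had been called.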

How the results depend on the processing

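With a pseudocount of 5 RPPM, fewer member regions were called, by construction since it shrinks the change of low regions: 6 for C nB to C GCB (13 with a pseudocount of 1), 19 for C nB to C BMPC (32), 11 for C GCB to C BMPC (20), 5 for KO nB to KO GCB (15) and 12 for KO GCB to KO BMPC (19). The likelihood ratio test of edgeR called 1 region for KO against C in BMPC (0 with limma). The other 325 counts of members under an alternative lay within 1.5 times the reported count. Leaving out each library in turn gave 10 to 14 called regions for C nB to C GCB, 28 to 32 for C nB to C BMPC, 16 to 21 for C GCB to C BMPC, 11 to 18 for KO nB to KO GCB, 21 to 28 for KO nB to KO BMPC, 14 to 21 for KO GCB to KO BMPC, and 0 for each comparison of KO with C and each interaction. No result reversed. Of 97 values of single regions that fell below the threshold under an alternative, 35 did so with a pseudocount of 5 RPPM and 44 when a library was left out.

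GCB pools F2 and M1 occurred in both genotypes, but their deviations correlated at 0.0604 and 0.0924 over 37295 regions and the labels do not say that they share a day or litter. With this number as a replicate block (correlation 0.0751), the called members were 13, 20, 15 and 19 in the comparisons that include GCB, as without it. Over all regions, KO against C in BMPC gave 60 higher and 9 lower with limma, 159 and 24 with only those groups fitted, 359 and 43 at an adjusted p of 0.05, 409 and 85 with DESeq2, 1135 and 159 with the quasi-likelihood test and 1635 and 242 with the likelihood ratio test, and the cause was not tested. The adjusted p of DESeq2 was missing for 15 and 23 members in the nB to BMPC and GCB to BMPC interactions. Depth was lowest in GCB, where low values rested on the fewest reads. How depth affected the calls in each cell type was not tested.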
